A study of Rattus norvegicus with 6 samples.

Results

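The genes described here are *Srebf1* and 9 genes of de novo fatty acid synthesis, namely *Fasn*, *Acaca*, *Acly*, *Scd*, *Elovl6*, *Thrsp*, *Mlycd*, *Me1* and *Acss2*. They were chosen by symbol as a known pathway and not by their values, and all 10 are among the 17315 rows of the expression tables. Of the 10, 9 were found under these symbols, and *Scd* was matched through its RefSeq identifier because the tables list it under the older symbol *Scd1*. *Scd* is also an older name of *Scd2*, whose row is a different one and is given beside it. The tables give 9 of the 10 a value above 0, and these 9 are among the 10331 genes with a mean over the samples of at least 1 TPM, a read share corrected for transcript length, which were the genes tested. *Thrsp* was listed at 0 in all 6 samples and was not tested.

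The study asked how loss of Derlin-1, an endoplasmic reticulum (ER) membrane protein that works in the disposal of misfolded proteins, alters the passage of neural stem cells (NSCs) from proliferation to quiescence. RNA-seq was made from adult rat hippocampal NSCs that had been reverse transfected with a control siRNA (siControl, 3 samples) or an siRNA against *Derl1* (siDerl1, 3 samples). Every sample had been kept for 2 days in proliferation medium and then for 2 days with BMP4 (50 ng/mL), which brings about quiescence, in the presence of bFGF (10 ng/mL), and was collected on day 4. The cells are a cloned line and a single siRNA was used against *Derl1*, so other lines and other siRNAs are not represented, and no group without BMP4 is analysed here. The samples of a group are not stated to come from separate cultures, and the p-values therefore measure the spread between these samples, which may be technical.

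De novo lipogenesis turns citrate from the mitochondria, or acetate, into acetyl-CoA, then into malonyl-CoA, and builds palmitate from it with NADPH as the reducing agent. The palmitate is then elongated and desaturated. SREBP-1, the product of *Srebf1*, is the transcription factor that drives most genes of this route. It is made as an ER membrane precursor, is escorted to the Golgi by SCAP, is held back by INSIG proteins, and enters the nucleus after it has been cut. Adult hippocampal NSCs need fatty acid synthase to proliferate, and quiescent NSCs are known for less lipogenesis. The mRNA level of *Srebf1* does not report how much of the precursor is cut.

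The start regions of *Srebf1*, *Acly* and *Acss2* are shown because *Srebf1* and *Acly* were lower in every siDerl1 sample than in any siControl sample, and *Acss2* was higher in siDerl1 in each pair of samples with the same number. They run from 250 bases before to 50 bases after each RefSeq transcription start of the assembly GRCr8, are written 5′ to 3′ on the strand of the gene, and carry CCAAT, the core that NF-Y binds, or its complement ATTGG in capitals. *Srebf1* has 2 starts, at chr10:45529115-45529414 and chr10:45518961-45519260 on the minus strand. *Acly* is at chr10:85963582-85963881 on the minus strand and *Acss2* at chr3:164464453-164464752 on the plus strand. *Me1* was also higher in siDerl1 in each numbered pair. Its start region holds neither CCAAT nor ATTGG and is not shown.
Srebf1 start 1: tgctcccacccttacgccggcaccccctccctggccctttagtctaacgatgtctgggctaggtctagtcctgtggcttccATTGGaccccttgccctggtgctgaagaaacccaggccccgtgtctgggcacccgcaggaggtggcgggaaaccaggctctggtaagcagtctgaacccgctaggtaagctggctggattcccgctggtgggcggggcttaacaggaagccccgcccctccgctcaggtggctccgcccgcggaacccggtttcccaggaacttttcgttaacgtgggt
Srebf1 start 2: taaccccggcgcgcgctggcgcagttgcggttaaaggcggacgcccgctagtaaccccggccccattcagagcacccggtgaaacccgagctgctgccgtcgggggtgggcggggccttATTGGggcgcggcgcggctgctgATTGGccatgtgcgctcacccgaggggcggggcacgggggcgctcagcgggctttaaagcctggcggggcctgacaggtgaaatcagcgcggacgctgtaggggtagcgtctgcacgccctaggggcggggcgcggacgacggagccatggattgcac
Acly: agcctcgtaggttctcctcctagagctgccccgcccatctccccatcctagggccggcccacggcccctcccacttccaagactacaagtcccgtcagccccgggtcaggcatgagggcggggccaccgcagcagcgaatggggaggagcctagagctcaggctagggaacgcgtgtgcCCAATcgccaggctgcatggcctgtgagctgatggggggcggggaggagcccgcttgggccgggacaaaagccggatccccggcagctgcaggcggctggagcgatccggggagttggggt
Acss2: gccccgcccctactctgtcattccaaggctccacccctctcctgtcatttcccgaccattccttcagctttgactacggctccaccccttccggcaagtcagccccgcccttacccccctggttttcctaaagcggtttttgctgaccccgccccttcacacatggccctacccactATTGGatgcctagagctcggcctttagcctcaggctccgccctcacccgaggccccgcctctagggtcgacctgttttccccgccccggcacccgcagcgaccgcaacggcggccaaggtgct

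RefSeq gave 8 such sequences for 7 of the 10 genes, namely *Srebf1*, *Acly*, *Scd*, *Thrsp*, *Mlycd*, *Me1* and *Acss2*. On either strand, CCAAT was present in 6 of the 8, against 37.5% of the 33469 start regions in the table. Counted from the transcription start, it lay at −169 in the first and at −131 and −108 in the second start region of *Srebf1*, at −71 in *Acly*, at −73 in *Acss2*, at −121 in *Thrsp*, and at −88 and −53 in *Mlycd*. None of the 8 held TCACNCCAC (a sterol regulatory element, in 1.12% of all start regions), CACGTG (an E-box, 6.42%) or TTCNNNGAA (a STAT site, 8.87%). The motifs do not overlap one another in these windows, and a match or its absence describes these letters only. The starts are RefSeq's and not those measured in these cells.

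The targeted gene was read first. *Derl1* was at 121.6, 131.9 and 127.6 TPM in siControl samples 1, 2 and 3 and at 44.9, 70.8 and 74.0 TPM in siDerl1 samples 1, 2 and 3. It was thus lower in every siDerl1 sample, at 0.498 times the siControl mean, with a log2 fold change of −1.03 on the log2(TPM + 1) scale. This log2 scale is used throughout and understates the changes of low genes. The limma adjusted p of *Derl1* was 0.497 without the replicate number as a block and 0.00884 with it, but 0.104 when the blocked fit kept low genes and 0.229 with the block and no trend in the variance.

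The samples each summed to 1000000 TPM and had between 11641 and 11808 genes above 0. TPM keeps no depth, so counting error is unknown. Both samples numbered 1, one in each group, stood apart from the other 4. Across the genes tested, deviations from the group means went together between samples of the same number, and values from a fit with the number as a block are therefore given where they bear on a result. Of 10 NSC markers, 9 had a mean of at least 1 TPM and *Prom1* was at 0. The summed NSC markers lay between 3889 and 5864 TPM in siControl and between 4310 and 5882 TPM in siDerl1. *Vim* makes up most of this sum. Both samples numbered 1 were below the other 4 for *Vim*, *Slc1a3* and *Pax6*. *Gfap*, an astrocyte and NSC gene, was at 47.0, 27.7 and 28.9 TPM in siControl samples 1, 2 and 3 and at 66.3, 47.5 and 45.3 TPM in siDerl1 samples 1, 2 and 3, a ratio of 1.54 (limma adjusted p of 0.704 without the block and 0.0219 with it, a call that is lost with the block and no trend in the variance, where 0 genes have an adjusted p under 0.05). *Nes*, an NSC intermediate filament gene, was lower in siDerl1 without overlap of the groups at a ratio of 0.831 (adjusted p of 0.704 without the block and 0.0899 with it). *Hes5* had the largest ratio of these markers, 1.78, and was higher in each pair with groups that overlapped (adjusted p of 0.844 without the block and 0.231 with it). Of the 9 NSC markers tested, 5 were higher and 4 lower in siDerl1. Oligodendrocyte genes were also present, with 5 of 8 markers at a mean of at least 1 TPM. Their sum was 1672 to 1963 TPM in siControl and 1641 to 2159 TPM in siDerl1, with *Sox10* at a mean of 645 TPM in siControl and 659 TPM in siDerl1, although *Mog* and *Mobp* were at 0. *Pdgfra* was lower in each pair (ratio 0.724, adjusted p of 0.113 with the block) and *Mbp* higher in each pair (ratio 1.13, adjusted p of 0.284), and the groups overlapped for both. Of 8 neuron markers 5 reached this level, summing to between 148.4 and 176.5 TPM over both groups. Of these *Dcx* (ratio 0.719) and *Syt1* (ratio 0.792) were lower in siDerl1 without overlap and passed the limits of the study given below, with adjusted p of 0.205 and 0.129 with the block. *Tubb3* was higher without overlap (ratio 1.16, adjusted p of 0.307 with the block), and *Syp* was higher in each pair with groups that overlapped (ratio 1.56). Microglia markers did so for 2 of 9 genes and summed to at most 9.36 TPM, with *Cx3cr1* and *C1qa* at 0. None of the 7 endothelial and adipocyte markers did so, and *Cldn5*, *Adipoq* and *Lep* were at 0. The part of the oligodendrocyte, NSC and neuron genes in the values below was not tested. In bulk RNA, fewer cells of a type and less RNA per cell cannot be told apart.

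In siDerl1 NSCs the mRNA of *Fasn* was at 0.999, that of *Acaca* at 0.978 and that of *Scd* at 1.01 times the siControl mean. *Srebf1*, *Acly* and *Elovl6* were lower in siDerl1 samples without overlap of the groups. *Acss2* and *Me1* were higher in each numbered pair, with groups that overlapped. No member had an adjusted p under 0.05, with or without the block. Over the 9 genes tested, the median log2 fold change was −0.00 (range −0.49 to 0.26, 4 higher and 5 lower), beside a median of −0.02 over all genes tested.

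Without the block, 1 member (*Elovl6*) was lower at an unadjusted limma p under 0.05, against 4.03% of all genes tested, and 0 were higher, against 2.67%. With the block 2 members (*Acly* and *Elovl6*) were lower, against 8.88%, and 1 (*Acss2*) was higher, against 6.84%. An adjusted p under 0.05 was reached by 0 members and 0.0% of all genes without the block, and by 0 members and 0.552% of all genes (57 genes) with it. These 57 became 2 with the block and no filter and 0 with the block and no trend. They became 397 with the block and without both samples numbered 1, with 0 members in each of these fits. That last fit rests on numbers 2 and 3 alone. It has almost no spread of its own to measure, so its p-values depend largely on the variance pooled over all genes. The limits the study set (a ratio above 1.5 or below 0.8 with an unadjusted p under 0.05) were passed by 0 members and 2.21% of all genes. This was with limma, whereas the study used edgeR, and *Srebf1* is on its own list of changed genes. The groups did not overlap for 3 members that were lower in siDerl1, against 8.52% of all genes, and for 0 that were higher, against 5.09%. The members' shares for lower values are above those of all genes, but they rest on 1, 2 and 3 of 9 genes and nothing is read from them about the genes as a group.

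**Figure D1:**
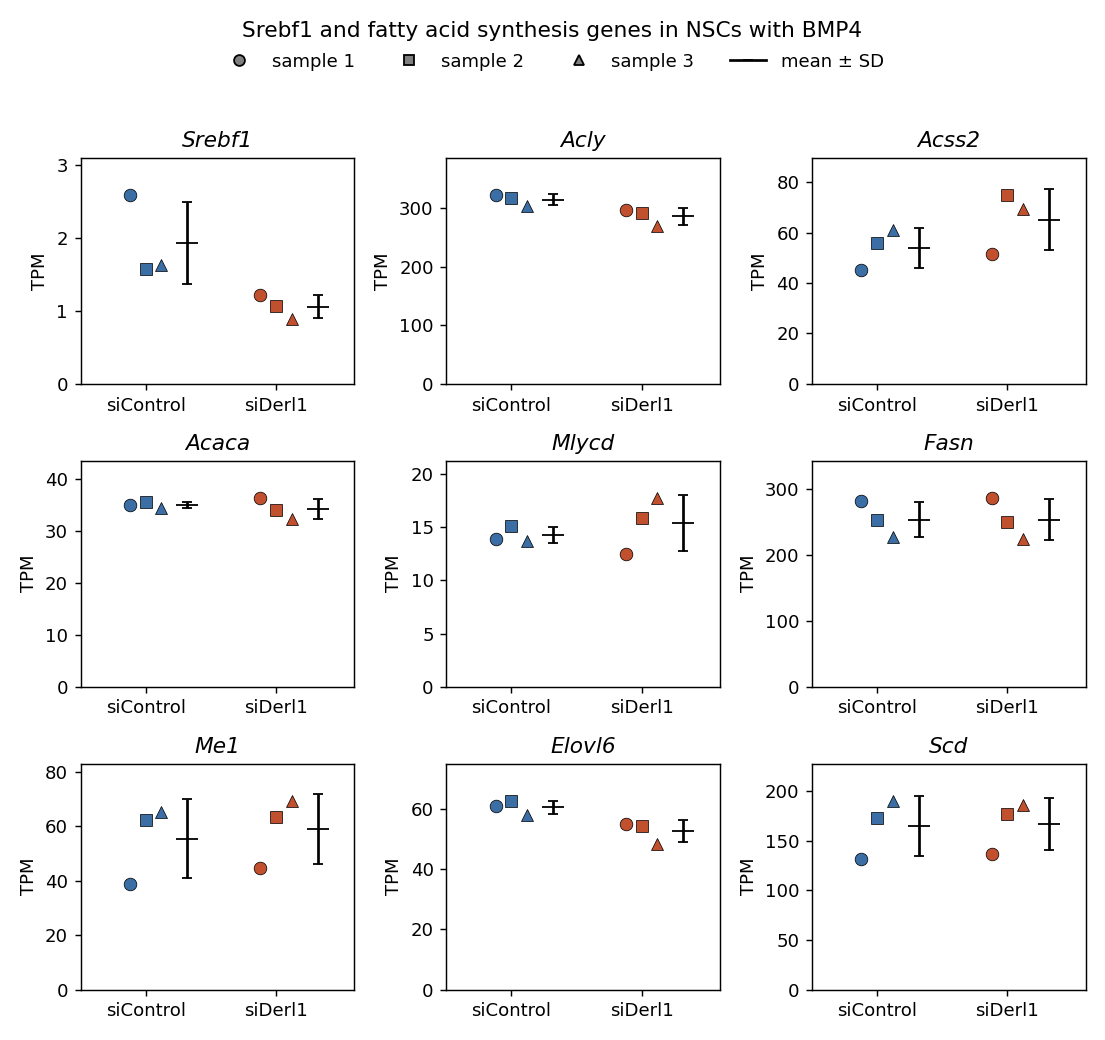
Levels in TPM (vertical axes, from 0) of the 9 genes with values above 0, for the 3 siControl samples (blue) and the 3 siDerl1 samples (orange), with sample numbers shown by shape and the mean ± SD as a bar beside each group. The groups are apart for *Srebf1*, *Acly* and *Elovl6* and overlap for the other genes, and both samples numbered 1 lie below the others for *Scd*, *Me1* and *Acss2*.

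*Srebf1*, the regulator, was the lowest of the 9 genes. It was at 2.58, 1.57 and 1.63 TPM in siControl samples 1, 2 and 3 and at 1.21, 1.07 and 0.89 TPM in siDerl1 samples 1, 2 and 3. Every siDerl1 sample was below every siControl sample, and siControl sample 1 was the highest of all. The means were 1.93 ± 0.567 TPM (SD, n = 3) in siControl and 1.06 ± 0.160 TPM (SD, n = 3) in siDerl1, a ratio of 0.548. The log2 fold change was −0.49 (SE 0.23, 95% interval −1.04 to 0.05), with a limma p of 0.0707 and an adjusted p of 0.763. With the block the p was 0.0605 (adjusted 0.342), and with the block and without both samples numbered 1 the log2 fold change was −0.39 (limma p of 0.191, adjusted p of 0.528). The difference was −0.70, −0.31 and −0.48 on this scale in pairs 1, 2 and 3. The exact permutation test of the TPM values (two-sided) gave 0.1, the smallest p that 3 against 3 samples allow.

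The values of *Srebf1* depended on how low genes were treated. With a pseudocount of 0.1 the log2 fold change was −0.78. Without the filter on low values the limma p was 0.0219, and without a trend in the variance it was 0.0154, and *Srebf1* then passed the limits of the study. *Srebf1* is on the list of changed genes that the study made from these samples, so its direction here is not independent evidence. The row pools 2 RefSeq transcripts, and the SREBP-1a and SREBP-1c forms cannot be told apart in it. *Srebf2*, the paralog that drives cholesterol synthesis, was far higher per length, at 240.7 TPM in siControl and 239.1 TPM in siDerl1.

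*Thrsp* encodes a small protein that acts with its paralog MID1IP1 on acetyl-CoA carboxylase. While *Thrsp* was listed at 0 throughout, *Mid1ip1* was at 112.1 TPM in siControl and 101.5 TPM in siDerl1 (log2 fold change −0.14). The tables hold no counts, so no upper limit can be given for *Thrsp*.

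Acetyl-CoA for lipogenesis comes from citrate through ATP citrate lyase (*Acly*) and from acetate through the cytosolic acetyl-CoA synthetase (*Acss2*), and the values of these genes went opposite ways. *Acly* was at 321.6, 316.7 and 304.2 TPM in siControl samples 1, 2 and 3 and at 296.7, 292.3 and 269.5 TPM in siDerl1 samples 1, 2 and 3. All siDerl1 samples were lower, by a small margin. The ratio of the means was 0.911, from 314.2 ± 8.99 TPM (SD, n = 3) in siControl and 286.2 ± 14.6 TPM (SD, n = 3) in siDerl1. On the log2 scale the change was −0.14 (SE 0.06, 95% interval −0.27 to 0.00), with a limma p of 0.0561 and an adjusted p of 0.74. The block brought the p to 0.0156 (adjusted 0.208), and leaving out both samples numbered 1 as well gave 0.0176 (adjusted 0.174) at a log2 fold change of −0.14. With the block but no trend in the variance, the p was 0.0945.

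*Acss2* was at 45.1, 55.8 and 60.9 TPM in siControl samples 1, 2 and 3 and at 51.4, 74.8 and 69.4 TPM in siDerl1 samples 1, 2 and 3. The groups overlapped because siDerl1 sample 1 lay below siControl samples 2 and 3. Both samples numbered 1 were low, and siDerl1 was the higher of the pair for each number. Its means of 54.0 ± 8.05 TPM (SD, n = 3) and 65.2 ± 12.2 TPM (SD, n = 3) gave a ratio of 1.21 and a log2 fold change of 0.26 (SE 0.16, 95% interval −0.12 to 0.65). The limma p was 0.154 (adjusted 0.806) and the exact permutation p of the TPM values was 0.3. Without the block, the log2 fold change moved to 0.42 (limma p of 0.017, adjusted p of 0.635) without siDerl1 sample 1, to 0.14 without siControl sample 1 and to 0.16 without siDerl1 sample 2. The block brought the SE to 0.07 and the interval to 0.09 to 0.43, with a p of 0.00673 (adjusted 0.16). Without both samples numbered 1 the blocked log2 fold change was 0.30, and the p was 0.00222 with an adjusted p of 0.054, the lowest adjusted p of a member in the alternatives run. That p depends largely on the variance pooled over all genes, since so few samples are left. The mitochondrial paralog *Acss1* was at 11.0 TPM in siControl and 11.4 TPM in siDerl1.

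Acetyl-CoA carboxylase 1 (*Acaca*) makes malonyl-CoA, the committed step of the route. It was at 35.0, 35.7 and 34.5 TPM in siControl samples 1, 2 and 3 and at 36.3, 34.1 and 32.4 TPM in siDerl1 samples 1, 2 and 3. The groups overlapped and the 6 values lay close together. The log2 fold change was −0.03 (SE 0.08, 95% interval −0.22 to 0.16), with a limma p of 0.698 and an adjusted p of 0.96. Malonyl-CoA decarboxylase (*Mlycd*) undoes this step. It was at 13.9, 15.1 and 13.7 TPM in siControl samples 1, 2 and 3 and at 12.5, 15.8 and 17.7 TPM in siDerl1 samples 1, 2 and 3. The siDerl1 samples lay on either side of the siControl samples, with pair differences of −0.14, 0.06 and 0.34 that did not share a direction. The log2 fold change of *Mlycd* was 0.09 (SE 0.14, 95% interval −0.25 to 0.43), with a limma p of 0.547 and an adjusted p of 0.942. *Acacb*, the paralog of *Acaca* tied to control of fatty acid oxidation, was at 2.57 TPM in siControl and 2.30 TPM in siDerl1.

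*Fasn* encodes fatty acid synthase, which makes palmitate and is the enzyme that adult NSCs are known to need. It was at 281.1, 252.5 and 227.3 TPM in siControl samples 1, 2 and 3 and at 285.7, 250.1 and 224.1 TPM in siDerl1 samples 1, 2 and 3. Samples of the same number were almost level, and both samples numbered 1 were above the other 4. The means were 253.6 ± 26.9 TPM (SD, n = 3) and 253.3 ± 30.9 TPM (SD, n = 3), a ratio of 0.999. On the log2 scale the change was −0.00 (SE 0.11, 95% interval −0.26 to 0.26), with a limma p of 0.976 and an adjusted p of 0.998. With the block the interval narrowed to −0.11 to 0.10, so changes in *Fasn* of more than 0.11 on the log2 scale in either direction lie outside it.

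Malic enzyme 1 (*Me1*) supplies cytosolic NADPH. It was at 38.9, 62.2 and 65.2 TPM in siControl samples 1, 2 and 3 and at 44.5, 63.3 and 69.2 TPM in siDerl1 samples 1, 2 and 3. Sample 1 of each group was far below the other 4, and within each number the siDerl1 sample was slightly the higher. The log2 fold change was 0.10 (SE 0.23, 95% interval −0.45 to 0.65), with a limma p of 0.679 and an adjusted p of 0.958. The block reduced the interval to −0.06 to 0.26 (limma p of 0.186, adjusted p of 0.534). Its paralog *Me2*, the mitochondrial enzyme, was at 47.2 TPM in siControl and 45.5 TPM in siDerl1.

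*Elovl6* elongates palmitate to stearate and was the 1 member with an unadjusted p under 0.05 without the block. It was at 60.9, 62.5 and 58.1 TPM in siControl samples 1, 2 and 3 and at 55.1, 54.2 and 48.4 TPM in siDerl1 samples 1, 2 and 3. All siDerl1 samples were below all siControl samples. The ratio of the means was 0.869, from 60.5 ± 2.25 TPM (SD, n = 3) in siControl and 52.6 ± 3.63 TPM (SD, n = 3) in siDerl1. The log2 fold change was −0.20 (SE 0.08, 95% interval −0.39 to −0.02), with a limma p of 0.0371 and an adjusted p of 0.713. The block gave a p of 0.0161 (adjusted 0.209), and leaving out both samples numbered 1 as well gave 0.0144 (adjusted 0.159). Without the block, the unadjusted p was no longer under 0.05 when siControl sample 1, siControl sample 2, siDerl1 sample 2 or siDerl1 sample 3 was left out, and was between 0.0313 and 0.114 over the 6 such fits.

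Stearoyl-CoA desaturase (*Scd*) makes oleate and palmitoleate. It was at 131.9, 173.2 and 189.9 TPM in siControl samples 1, 2 and 3 and at 136.7, 177.0 and 186.1 TPM in siDerl1 samples 1, 2 and 3. As for *Me1* and *Acss2*, both samples numbered 1 were below the other 4, and the groups overlapped. The log2 fold change was 0.02 (SE 0.16, 95% interval −0.36 to 0.40), with a limma p of 0.918 and an adjusted p of 0.989, and the block narrowed the interval to −0.10 to 0.13. *Scd2*, the isoform of brain, was the most abundant desaturase at 1142 TPM in siControl and 1129 TPM in siDerl1. Reads shared by such paralogs may have been split between their rows, so the rows of *Scd* and *Scd2* are uncertain to that extent.

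**Figure D2:**
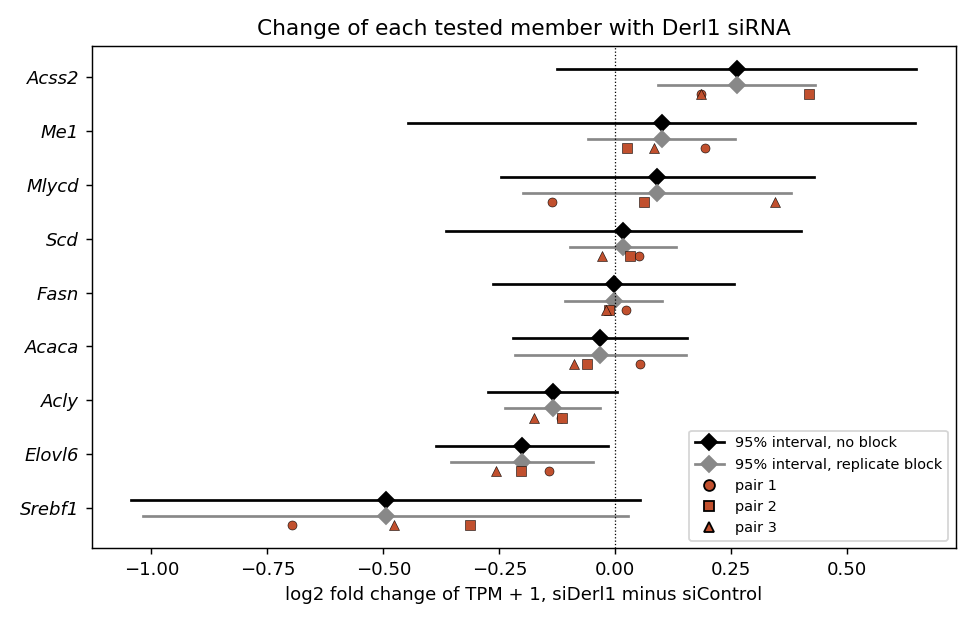
Log2 fold change of TPM + 1, siDerl1 minus siControl (horizontal axis), for each gene tested, with the 95% interval from limma without the block (black) and with it (grey) and the difference in each numbered pair (orange). The black intervals reach across 0 except for *Elovl6* (−0.39 to −0.02), the grey ones leave 0 outside for *Acly*, *Elovl6* and *Acss2*, and the grey interval is much the narrower for *Fasn*, *Scd*, *Me1* and *Acss2*.

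By level in siControl, in TPM and so per length, the order was *Acly*, *Fasn*, *Scd*, *Elovl6*, *Me1*, *Acss2*, *Acaca*, *Mlycd*, *Srebf1* and *Thrsp*. The neighbours *Elovl6* and *Me1*, and *Me1* and *Acss2*, overlapped in their range over the 3 siControl samples, and no other neighbours did. In siDerl1, *Acss2* came above *Me1* and *Me1* above *Elovl6*, and the other genes kept their place. Among the genes tested, the mean level of *Acly* was at percentile 95.5, *Fasn* at 94.0 and *Scd* at 89.9. *Elovl6*, *Me1* and *Acss2* were at percentiles 68.5, 66.0 and 65.1, *Acaca* at 51.1, *Mlycd* at 26.5 and *Srebf1* at 4.11. The regulator was thus near the lowest levels tested, while the enzymes for citrate cleavage, palmitate synthesis and desaturation were among the more abundant mRNAs.

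For 4 of the 9 genes both samples numbered 1 lay outside the other 4. Both samples numbered 1 were below the other 4 for *Scd*, *Me1* and *Acss2*, which is 3 members against 17.0% of all genes tested, and above them for *Fasn*, which is 1 member against 15.7%. The mean of the samples numbered 1 minus that of the other 4 was −0.43 for *Scd*, −0.63 for *Me1* and −0.42 for *Acss2* on the log2 scale. For *Me1* the means of the 3 numbers ranged over 0.68, while the largest difference within a pair was 0.19. For *Fasn* they ranged over 0.33, with at most 0.02 within a pair. For *Acss2* the number means ranged over 0.43, close to the difference of 0.42 in pair 2. When both samples numbered 1 were left out, a comparison added after the values had been seen, *Acaca* joined *Srebf1*, *Acly* and *Elovl6* as lower without overlap, which is 4 members against 26.5% of all genes. *Acss2* and *Mlycd* were then higher without overlap, which is 2 members against 16.3%. The labels do not say what the number stands for.

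**Figure D3:**
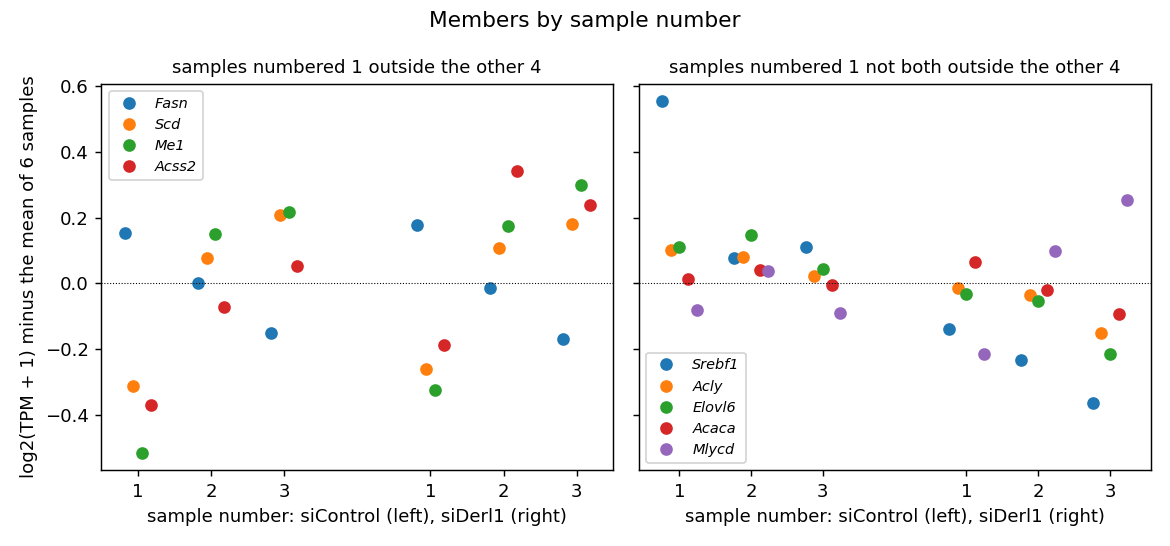
Log2(TPM + 1) of each gene minus its mean over the 6 samples (vertical axis) by sample number (horizontal axis), with siControl on the left and siDerl1 on the right of each panel. The left panel holds the 4 genes whose samples numbered 1 lie outside the other 4, with *Fasn* above and *Scd*, *Me1* and *Acss2* below, and the right panel holds the other 5 genes tested.

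The genes with profiles most like those of *Srebf1*, *Fasn* and *Scd* over the 6 samples were sought among the 9162 genes with a mean of at least 5 TPM, by the root mean square difference of centred log2 values. For *Srebf1* they were *Asic1* (0.09), *RGD1563159* (0.10) and *Sod3* (0.10). The log2(TPM + 1) scale shrinks the changes of *Srebf1* more than those of genes of at least 5 TPM. A like profile here is therefore not a like ratio of the means. *Asic1*, an acid-sensing ion channel gene, was at 26.5, 19.2 and 17.7 TPM in siControl samples 1, 2 and 3 and at 15.7, 14.0 and 15.3 TPM in siDerl1 samples 1, 2 and 3. For *Fasn* they were *S100a10*, *Gcn1l1* and *Luc7l3*, each at 0.02. *S100a10*, which encodes an annexin partner, was at 662.1, 582.4 and 540.3 TPM in siControl samples 1, 2 and 3 and at 675.3, 594.0 and 536.4 TPM in siDerl1 samples 1, 2 and 3. For *Scd* they were *Vldlr* (0.02), *Gapdh* (0.03) and *Plekhh3* (0.03). *Vldlr*, the gene of the very low density lipoprotein receptor, was at 39.2, 52.2 and 56.1 TPM in siControl samples 1, 2 and 3 and at 40.3, 51.2 and 56.2 TPM in siDerl1 samples 1, 2 and 3. *S100a10* and *Vldlr* thus had the order by number of *Fasn* and *Scd*, with sample 1 of both groups the highest and the lowest, respectively.

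Related genes were read in 8 lists, of which 139 of 143 genes were in the tables and 130 were tested. Their median log2 fold change was 0.01, with 72 higher and 58 lower in siDerl1, beside 4674 higher and 5657 lower over all genes tested. Without the block 6 were higher and 2 lower at an unadjusted limma p under 0.05, which is 6.15% of the 130 beside 6.7% of all genes. With the block 14 were higher and 8 lower, which is 16.9% beside 15.7%. None of the 130 had an adjusted p under 0.05 in either fit.

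Among 18 tested regulators of SREBP processing and lipogenesis the median log2 fold change was −0.04, with 8 higher and 10 lower. *Insig1*, whose protein retains SCAP in the ER, was at 229.5, 236.6 and 235.9 TPM in siControl samples 1, 2 and 3 and at 265.2, 254.6 and 250.3 TPM in siDerl1 samples 1, 2 and 3 (log2 fold change 0.13, limma p of 0.0374, adjusted p of 0.713). It was higher in all siDerl1 samples. *Rxra*, the retinoid X receptor that pairs with LXR on the *Srebf1* gene, was at 85.9, 69.5 and 66.7 TPM in siControl samples 1, 2 and 3 and at 65.6, 60.7 and 58.2 TPM in siDerl1 samples 1, 2 and 3 (log2 fold change −0.26, limma p of 0.0497, adjusted p of 0.74). It was lower in all siDerl1 samples. Over this list the groups did not overlap for 3 lower genes and 1 higher gene, beside 8.52% and 5.09% of all genes. A link between *Rxra* and *Srebf1* was not tested. *Prkaa1*, a catalytic subunit of AMPK, had a log2 fold change of −0.20 (limma p of 0.0628, adjusted p of 0.754) without the block and a p of 0.0453 (adjusted 0.307) with it. The block raised the number of lower genes at an unadjusted p under 0.05 from 1 (*Rxra*) to 3 (with *Insig2* and *Prkaa1*), while the share over all genes went from 4.03% to 8.88%.

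Of 9 tested genes of mitochondrial fatty acid synthesis and malonyl-CoA use, 5 were higher and 4 lower, with a median of 0.11 and none at an unadjusted p under 0.05 without the block. The smallest p values were those of *Mcat*, the mitochondrial malonyl transferase (log2 fold change 0.31), and of the carnitine palmitoyltransferases *Cpt1b* (0.41) and *Cpt1a* (−0.14). With the block 1 higher gene (*Cpt1b*, at 0.05 after rounding) and 1 lower gene (*Cpt1a*) had an unadjusted p under 0.05. Of 15 elongation and desaturation genes 9 were higher and 6 lower, with a median of 0.02. None had an unadjusted p under 0.05 without the block, while with it 1 higher gene (*Tecr*) and 1 lower gene (*Fads2*) did. *Tecr*, the enoyl reductase of the elongation cycle, had a log2 fold change of 0.13, *Hacd1*, its dehydratase, 0.23, and *Hsd17b12*, its ketoreductase, −0.12.

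Genes that supply citrate, acetyl-CoA and NADPH had a median of 0.02 over 16 genes, with 9 higher and 7 lower, and 3 of them were higher at an unadjusted p under 0.05, beside 2.67% of all genes. *Pgls*, of the pentose phosphate pathway, was at 40.4, 39.5 and 39.7 TPM in siControl samples 1, 2 and 3 and at 47.3, 48.8 and 48.5 TPM in siDerl1 samples 1, 2 and 3 (log2 fold change 0.27, limma p of 0.00507, adjusted p of 0.704). *Idh1*, the cytosolic NADP-dependent isocitrate dehydrogenase, was at 127.6, 131.9 and 149.6 TPM in siControl samples 1, 2 and 3 and at 159.4, 165.6 and 154.0 TPM in siDerl1 samples 1, 2 and 3 (0.23, limma p of 0.0187, adjusted p of 0.704). *Slc25a1*, the carrier that exports citrate from mitochondria to where *Acly* acts, was at 133.9, 133.7 and 136.6 TPM in siControl samples 1, 2 and 3 and at 154.1, 157.9 and 143.5 TPM in siDerl1 samples 1, 2 and 3 (0.17, limma p of 0.0243, adjusted p of 0.704). For these 3 genes the groups did not overlap and siDerl1 was the higher, as for 5.09% of all genes, whereas *Acly* was lower.

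Downstream of the members, 19 genes of acyl-CoA activation and glycerolipid synthesis had a median of −0.04, with 9 higher and 10 lower. *Acsl1*, a long-chain acyl-CoA synthetase, was at 59.0, 52.8 and 48.7 TPM in siControl samples 1, 2 and 3 and at 80.4, 68.1 and 60.3 TPM in siDerl1 samples 1, 2 and 3 (log2 fold change 0.37, limma p of 0.0187, adjusted p of 0.704). It was higher in all siDerl1 samples, and with the block its adjusted p was 0.0557. *Agpat5* (−0.27) and *Acsl4* (−0.21) had the next smallest p values of this list. Genes of fatty acid uptake and binding had a median of −0.01 over 12 genes, with none at an unadjusted p under 0.05 without the block. *Mgll* (0.23), *Fabp3* (0.73) and *Lpl* (−0.48) had the smallest p values there, and *Fabp3* had an unadjusted p of 0.0341 (adjusted p of 0.279) with the block. *Fabp3* was low, at 2.5, 2.56 and 0.0 TPM in siControl samples 1, 2 and 3 and at 4.39, 2.66 and 1.87 TPM in siDerl1 samples 1, 2 and 3. Its groups overlapped, and its largest pair difference rests on the siControl sample at 0.0 TPM.

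The cholesterol synthesis genes, which SREBP-2 drives, had a median of 0.05 over 21 genes, with 18 higher and 3 lower. Over all genes tested 4674 were higher and 5657 lower. Genes of a single route are not independent of one another, and the split was not tested. None of the 21 had an adjusted p under 0.05 in either fit. At an unadjusted p under 0.05, 1 was higher without the block and 5 with it (*Hmgcs1*, *Lss*, *Nsdhl*, *Ebp* and *Dhcr7*), beside 2.67% and 6.84% of all genes. *Hmgcs1*, an early enzyme of the route, was at 266.7, 311.6 and 310.2 TPM in siControl samples 1, 2 and 3 and at 320.3, 365.1 and 370.0 TPM in siDerl1 samples 1, 2 and 3 (log2 fold change 0.25, limma p of 0.0238, adjusted p of 0.704). Within each number siDerl1 was the higher, and the block gave an adjusted p of 0.0517. *Nsdhl* (0.26) and *Dhcr7* (0.18) followed by p. Both samples numbered 1 were below the other 4 for 15 of these 21 genes, the same placing as for *Scd*, *Me1* and *Acss2*, beside 17.0% of all genes. Proliferation genes had a median of −0.01 over 20 genes, with 9 higher and 11 lower and none at an unadjusted p under 0.05 without the block. Among them *Birc5* had a log2 fold change of 0.20, *Ccne1* of 0.15 and *Mki67* of 0.10. With the block 1 higher gene (*Birc5*) and 1 lower gene (*Mcm7*) had an unadjusted p under 0.05.

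**Figure D4:**
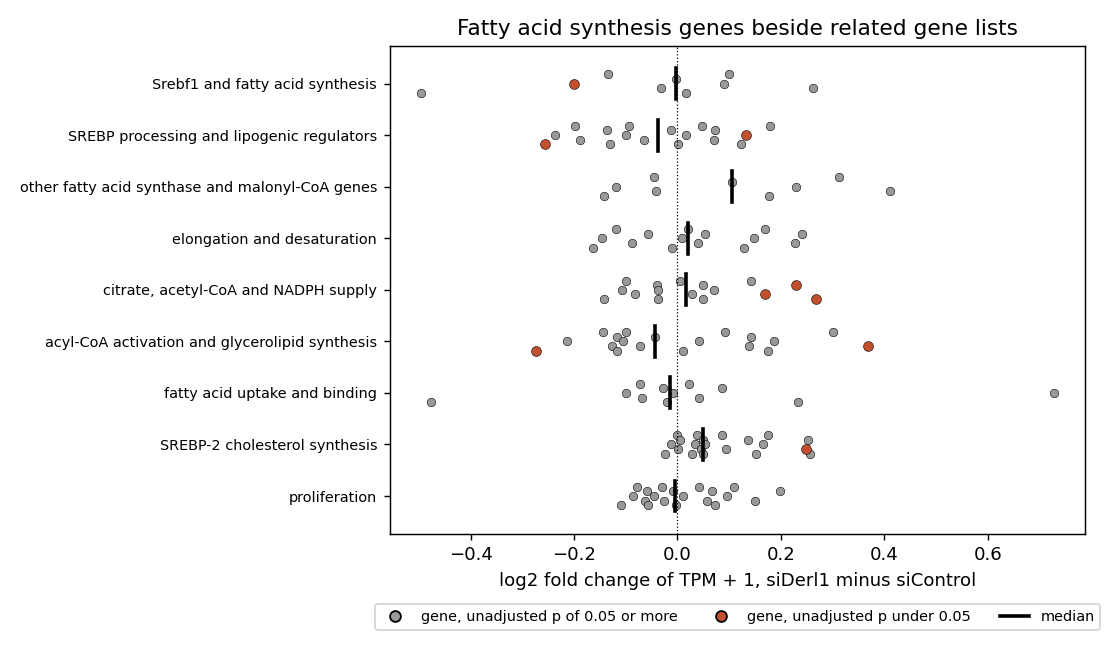
Log2 fold change of TPM + 1, siDerl1 minus siControl (horizontal axis), of each gene tested in *Srebf1* and fatty acid synthesis and in the 8 related lists (rows), with the list median as a vertical bar and genes at an unadjusted limma p under 0.05 in orange. The medians lie between −0.04 and 0.11, and the 8 orange genes of the related lists and *Elovl6* lie on both sides of 0.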

How the data were processed

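The authors had stranded poly(A) libraries of the 6 samples read on a HiSeq X. Per the submitters' processing notes, reads were handled with Trimmomatic 0.39, STAR 2.7.3a, RSEM 1.3.2 and edgeR 3.28.1 on rn6. The authors deposited TPM (RSEM, corrected for transcript length, rounded to 2 decimals), whose sum is fixed, so that the values are shares and the depth is unknown. The study tested differences with edgeR, and the values this was run on are not given in the sources used here. Groups and numbers came from the sample titles.

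Here log2(TPM + 1) was fitted with limma 3.58.1 (lmFit, eBayes with trend, R 4.3.3), siDerl1 against siControl, over 10331 genes whose mean TPM reached 1. Tests were two-sided, with Benjamini-Hochberg adjustment over all genes tested. The fits were tested on simulated data. Exact permutation tests used the TPM of the 6 samples. No list was tested as a set. The genes named were every member, *Derl1*, the 3 tested genes with the smallest p of each of the 8 lists, paralogs of members, and the 3 genes with profiles most like *Srebf1*, *Fasn* and *Scd*. *Insig2*, *Fads2*, *Lss*, *Ebp*, *Mcm7* and the cell type markers fall outside this rule and were named after their values were seen. The members, lists and tests were chosen with earlier results of these data known.

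To check whether the numbers pair the samples, deviations from the group means were compared. They correlated at 0.70, 0.35 and 0.51 between siControl and siDerl1 samples numbered 1, 2 and 3, across genes, which are not independent replicates, and each was over 0.1. Samples of different numbers correlated at 0.34 (siControl 2 with siDerl1 3) and 0.25 (siControl 3 with siDerl1 2), and negatively where 1 of them was number 1, so the check sets number 1 apart and separates numbers 2 and 3 little. The pairing rests on this check and on the numbers in the titles.

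Alternatives were a pseudocount of 0.1, no filter, a minimum mean TPM of 5, scaling by median of ratios, no trend, the replicate block (alone, without filter, without trend, or without both samples numbered 1) and each sample left out in turn. RefSeq tables of GRCr8 served for names and start regions only, since the reads were mapped to rn6. Of the 143 list genes, 139 were matched, and *Fbxw7*, *Acsf3*, *Hacd2* and *Scd4* were not. A planned comparison of protein sequences was not run, as no protein table was used here.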

Additional observations from a re-analysis of the deposited data

How the results depend on the processing

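No member had an adjusted p under 0.05 under any alternative run. The filter, the trend and the block alone leave a member's fold change as it is by construction, so only the other alternatives bear on its direction. The direction turned in 11 fits, for *Fasn*, *Acaca*, *Scd*, *Mlycd* or *Me1*. With median-of-ratios scaling *Fasn* was at 0.015 on the log2 scale. With 1 sample left out, log2 fold changes ranged from −0.094 to 0.081 for *Fasn*, −0.073 to 0.0066 for *Acaca*, −0.13 to 0.15 for *Scd*, −0.013 to 0.22 for *Mlycd* and −0.13 to 0.29 for *Me1*, and over these fits *Srebf1* (−0.58 to −0.34), *Acly* (−0.16 to −0.09), *Elovl6* (−0.24 to −0.14) and *Acss2* (0.14 to 0.42) kept their sign. *Derl1* ranged from −1.16 to −0.80. With the replicate block *Derl1* was at −1.03 (adjusted p = 0.00884, but 0.104 with no filter and 0.229 with no trend), and at −0.83 (adjusted p = 4.16e-07) without both samples numbered 1. This last p depends largely on the variance pooled over all genes, as few samples are left, and so do all p-values of that fit.

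The number of members at an unadjusted p under 0.05, 1 as reported, was 3 without the filter, 2 without the trend, 3 with the replicate block, 4 with the block and no filter, 3 with the block and no trend, 3 with the block and without both samples numbered 1, and 0 to 3 with 1 sample left out (3 without siDerl1 sample 1, 1 without siControl sample 3, and 0 without any of the others). Over all genes the same count moved too, from 692 to 849, 700, 1624, 1691, 1318 and 1795 in this order, and to between 424 and 805 with 1 sample left out. With the block and no trend the 3 members were *Srebf1*, *Elovl6* and *Acss2*, and *Acly* was no longer among them. The limits of the study, passed by 0 members, were passed by 1 (*Srebf1*) without the filter or the trend, each with or without the block. The 8 list genes at an unadjusted p under 0.05 became 5 without the trend, 22 with the block, 21 with the block and no filter, 11 with the block and no trend, 21 with the block and without both samples numbered 1, and 3 to 10 with 1 sample left out (3 without siControl sample 2 or siDerl1 sample 2). Leaving out both samples numbered 1 gave 2 members higher without overlap of the groups instead of 0. The cause of these shifts was not tested. *Srebf1* has no value with a mean TPM of at least 5. The planned protein comparison was not run. The TPM keep no depth, so the precision of *Srebf1*, the lowest member, cannot be set apart from its replicate spread.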
